A study of Drosophila melanogaster with 2 samples.

Results

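The Rab GTPase genes of Drosophila melanogaster were examined for binding of cato in whole embryos. Members were the protein-coding genes of the Ensembl BDGP6 annotation whose symbol is Rab or RabX followed by a digit, and 33 of 13945 protein-coding genes met this rule. Another 3 genes named after a Rab, which encode an exchange factor and subunits of an activating complex, are no GTPase genes and were left out. In the study, chromatin was taken from embryos aged 0 to 16 h, male and female pooled, of a transgenic fly line in which cato carries green fluorescent protein (GFP) at its C terminus, and the fusion was precipitated with an antibody against GFP. The chromatin had been sonicated, with a fragment range of 200 to 800 bp. The study had 1 condition, cato-eGFP, with 2 biological replicates, numbered 1 and 3 by the labels. Control libraries were not analysed here. The fusion was carried by every sample, whole embryos mix all tissues, and a peak therefore cannot be assigned to a cell type.

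Rab proteins are small GTPases that sit on membranes in their GTP-bound form and recruit effectors there, so that each compartment of the secretory and endocytic routes carries its own Rabs. Exchange factors load them with GTP, activating proteins stop them by stimulating hydrolysis, and a geranylgeranyl transferase adds the lipid that anchors them. The factor that was precipitated, cato, is a basic helix-loop-helix protein of the atonal family known for its part in the development of embryonic sensory neurons. Proteins of this class bind the E-box, CANNTG.

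The data were deposited peak lists on the genome build dm6. A list thresholded by the irreproducible discovery rate (IDR), a procedure that keeps peaks whose ranks agree between replicates, held 2746 peaks, and each replicate also had a list of 30000 peaks in which weak ones are included. Each peak carries the signal value deposited by the authors, which orders peaks within 1 list and cannot be set against a value from another list. In the IDR list its median was 106.3, the lowest value 68.9 and the highest 1099.8. The peaks of replicate 1 spanned 7.3 to 379.8, and the range of replicate 3 was 9.9 to 572.5. Ranks are used here to compare the replicates, with rank 1 for the strongest peak of a list. A peak was given to a gene where its summit lay within 1000 bp of an annotated start site or inside the gene, so 1 peak can belong to several genes. Read depth is unknown.

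An IDR peak was found at 5 of the 33 Rab genes, or 15.2%, against 18.4% of all protein-coding genes. The 5 genes were Rab5, which organises early endosomes, Rab11, which serves recycling endosomes, Rab14, an endosomal Rab, Rab23, which acts in planar cell polarity in flies, and Rab39, whose mammalian counterpart is linked to autophagy and lysosomes. Rab11 had 2 IDR peaks and the other 4 genes had 1 each. The share among Rab genes was near the background, and a count of 5 allows no finer statement. The summits with 100 bases on each side are printed here because they are the sequences that the peaks mark, each in the direction of its gene on dm6, with capitals for every CANNTG. The Rab5 window is chr2L:2363728-2363928 on the minus strand, those of Rab11 are chr3R:21113074-21113274 and chr3R:21113285-21113485 on the plus strand, that of Rab14 is chr2L:14355679-14355879 on the plus strand, and that of Rab23 is chr3R:5683076-5683276 on the minus strand. The Rab39 summit lies in an exon of the neighbouring gene Pdp, so only the 175 bp of that peak outside exons are shown, chrX:7734652-7734826 on the plus strand. The bases come from the RefSeq copy of the assembly.
Rab5: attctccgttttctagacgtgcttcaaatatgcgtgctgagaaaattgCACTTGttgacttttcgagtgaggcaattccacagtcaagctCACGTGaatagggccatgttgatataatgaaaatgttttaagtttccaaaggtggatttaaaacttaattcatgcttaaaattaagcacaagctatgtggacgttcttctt
Rab11, first peak: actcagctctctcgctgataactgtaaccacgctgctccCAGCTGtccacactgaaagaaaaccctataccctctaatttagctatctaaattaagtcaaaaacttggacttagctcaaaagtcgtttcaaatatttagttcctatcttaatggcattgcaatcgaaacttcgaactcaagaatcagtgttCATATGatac
Rab11, second peak: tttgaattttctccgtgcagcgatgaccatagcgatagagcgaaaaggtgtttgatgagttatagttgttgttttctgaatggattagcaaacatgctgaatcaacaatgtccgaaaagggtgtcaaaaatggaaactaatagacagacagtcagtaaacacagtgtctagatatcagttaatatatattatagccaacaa
Rab14: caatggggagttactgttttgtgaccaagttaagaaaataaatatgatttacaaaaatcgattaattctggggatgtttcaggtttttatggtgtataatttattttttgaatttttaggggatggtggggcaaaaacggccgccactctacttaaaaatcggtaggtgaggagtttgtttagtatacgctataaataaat
Rab23: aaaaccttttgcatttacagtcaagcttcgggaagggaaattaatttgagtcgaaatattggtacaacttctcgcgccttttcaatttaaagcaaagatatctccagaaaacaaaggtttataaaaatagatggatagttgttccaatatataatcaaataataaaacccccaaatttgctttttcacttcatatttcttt
Rab39, outside exons: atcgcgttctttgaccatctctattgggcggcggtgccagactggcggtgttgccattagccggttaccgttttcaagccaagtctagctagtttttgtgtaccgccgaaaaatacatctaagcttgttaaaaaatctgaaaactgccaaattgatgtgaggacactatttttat

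Rab5 (FBgn0014010, chromosome 2L, 2359142 to 2365273, minus strand) had an IDR peak from 2363626 to 2364029 with a signal value of 97.9, rank 1576, and 42.6% of IDR peaks were weaker. The gene has 6 annotated start sites, and the summit lay in an intron, 324 bp upstream of the nearest of them and 1445 bp inside the gene as counted from its 5′ end. In replicate 1 the strongest overlapping peak had a signal value of 28.6 and rank 1816, and in replicate 3 one of 54.4 and rank 1395. Their summits were 99 bp apart, so both replicates placed a strong peak at the same intronic spot. The first start site of Rab5 had a weaker peak in replicate 1, at rank 8531 and 37 bp downstream of it, and none of rank 10000 or better in replicate 3.

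Rab11 (FBgn0015790, chromosome 3R, 21111408 to 21116146, plus strand) carried the strongest IDR peak of the family, with a signal value of 145.5 and rank 729, and 73.5% of IDR peaks were weaker. That peak, from 21112972 to 21113375, had its summit in an intron, 1766 bp downstream of the single start site. The second IDR peak, from 21113183 to 21113586, had a signal value of 78.3 and rank 2255 and its summit at 1977 bp, so the pair overlap and mark 1 stretch of the same intron. Replicate 1 had peaks at 1780 and 1980 bp there, with signal values of 60.9 and 25.9 and ranks 439 and 2109, and replicate 3 had 1 peak, at 1845 bp, with a signal value of 60.3 and rank 1150. Both replicates also had a peak upstream of the Rab11 start site that is in no IDR peak. It lay 92 bp upstream in replicate 1, with rank 1508, and 257 bp upstream in replicate 3, with rank 5541.

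Rab14 (FBgn0015791, chromosome 2L, 14355145 to 14358764, plus strand) had an IDR peak from 14355577 to 14355980 with a signal value of 82.7 and rank 2071, and 24.6% of IDR peaks were weaker. Its summit was in an intron, 634 bp downstream of the first of 3 start sites. The overlapping peaks had a signal value of 30.5 and rank 1625 in replicate 1 and a signal value of 56.5 and rank 1306 in replicate 3, with summits 114 bp apart. The gene l(2)34Fd starts 60 bp away on the opposite strand.

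Rab23 (FBgn0037364, chromosome 3R, 5680054 to 5685434, minus strand) had the weakest of these peaks, from 5682974 to 5683377, with a signal value of 73.4 and rank 2514, and 8.5% of IDR peaks were weaker. The summit was in an intron, 2258 bp downstream of the start site. Replicate 1 had an overlapping peak with a signal value of 21.6 and rank 2806, and replicate 3 one with a signal value of 32.0 and rank 3328, 71 bp apart. Neither is among the 2746 strongest peaks of its replicate, which sets Rab23 apart from the other 4 genes. Upstream of the Rab23 start site the replicates had a second pair of peaks, 339 bp away at rank 4852 in replicate 1 and 349 bp away at rank 3457 in replicate 3.

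Rab39 (FBgn0029959, chromosome X, 7734923 to 7736756, plus strand) had an IDR peak from 7734423 to 7734826 with a signal value of 109.7 and rank 1301, and 52.6% of IDR peaks were weaker. The summit was 298 bp upstream of the Rab39 start site and 26 bp from that of Pdp, which encodes pyruvate dehydrogenase phosphatase and starts 272 bp from Rab39 on the opposite strand. The peak is therefore shared between both genes and its summit is nearer to Pdp. Replicate 1 had peaks at 431 and 231 bp upstream of Rab39, with signal values of 32.6 and 17.8 and ranks 1469 and 3887, and replicate 3 had 1 peak, 316 bp upstream, with a signal value of 68.3 and rank 886.

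**Figure D1:**
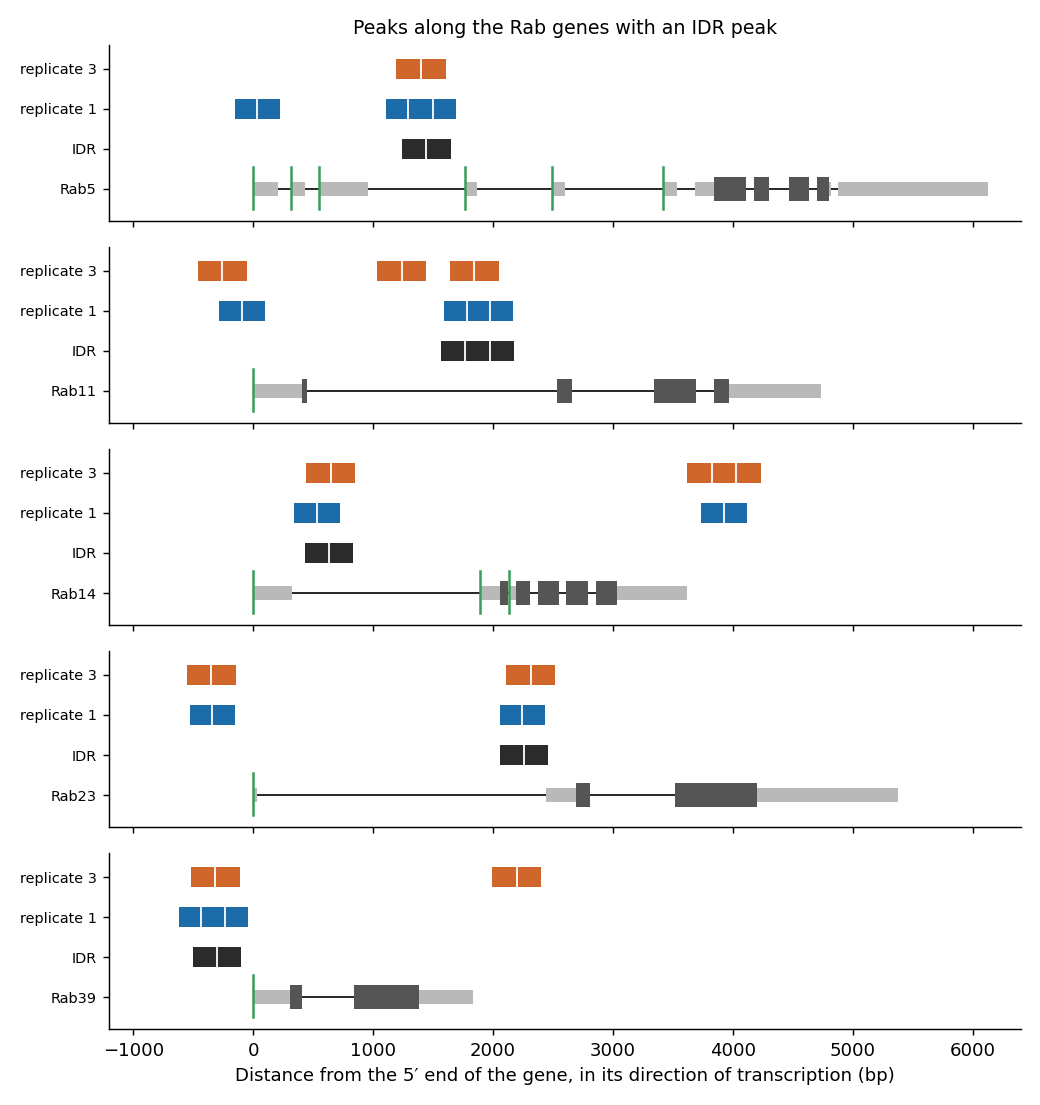
Peaks along the 5 Rab genes with an IDR peak, with the distance from the 5′ end of the gene in bp on the horizontal axis. The lowest row of each panel is the gene (thick dark blocks coding exons, light blocks other exons, green bars start sites), and above it are the IDR peaks and the peaks of rank 10000 or better in replicates 1 and 3, each with its summit as a white line. The IDR peaks of Rab5, Rab11, Rab14 and Rab23 lie in introns and that of Rab39 lies upstream of the gene.

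The 6 peaks at Rab genes had signal values from 73.4 to 145.5 with a median of 90.3, against a median of 106.3 over all IDR peaks. Of the 6 summits, 5 were in introns, or 83.3%, against 44.5% of all IDR summits, and 3 of the 6 lay within 1000 bp of a coding gene's start site, against 59.5% of all. Since introns and gene bodies were part of the rule that gave peaks to genes, the intron share is partly set by that rule. Among the 6 peaks, 5 overlapped one of the 2746 strongest peaks of each replicate, or 83.3%, against 75.7% of all IDR peaks. The 2 Rab11 peaks overlap, and the same strongest peak of each replicate counts for both. The 6 peaks are therefore not all separate regions, and the shares and the median given here count that stretch of Rab11 more than once.

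**Figure D2:**
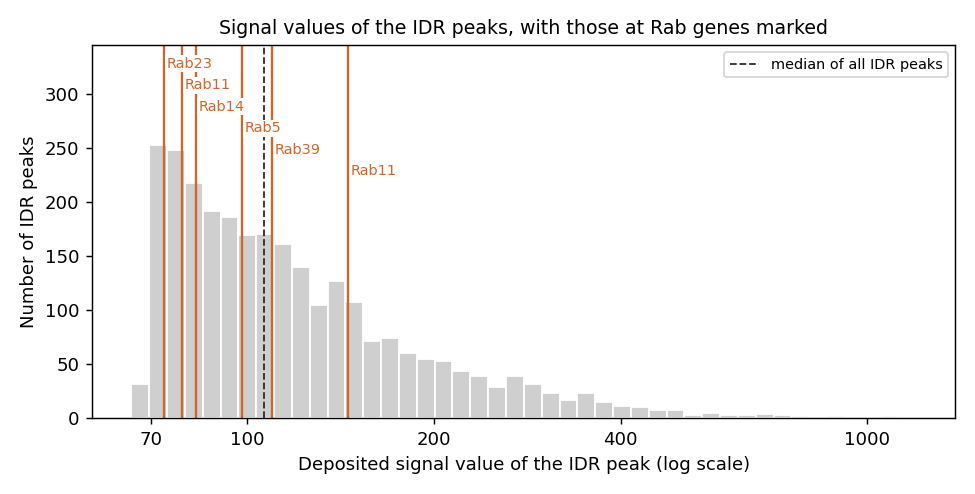
Signal values of all 2746 IDR peaks as a histogram on a log scale (number of peaks per bin on the vertical axis), with orange lines at the 6 peaks of Rab genes and a dashed line at the median of all, 106.3. The Rab23, weaker Rab11, Rab14 and Rab5 peaks lie below that median, and the Rab39 and stronger Rab11 peaks lie above it.

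An IDR peak close to a start site was found at 3 Rab genes, Rab5, Rab14 and Rab39, or 9.09%, against 15.7% of all protein-coding genes. Their summits were 324 bp upstream, 634 bp downstream and 298 bp upstream of a start site. None of them lay within 250 bp of one, where 1510 of the 13945 genes, or 10.8%, had a summit.

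The replicates were then read one at a time. Among the 2746 strongest peaks of replicate 1, 4 Rab genes had at least 1 (Rab5, Rab11, Rab14 and Rab39), or 12.1%, against 18.7% of all genes. Among as many of replicate 3 there were 5 (the same 4 and Rab9), or 15.2%, against 18.1% of all genes. With weak peaks included, 23 Rab genes had a peak in replicate 1, or 69.7%, against 64.9% of all genes, and 27 had one in replicate 3, or 81.8%, against 66.4%. Peaks of both replicates that overlapped each other were found at 18 Rab genes, or 54.5%, against 45.9% of all genes.

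**Figure D3:**
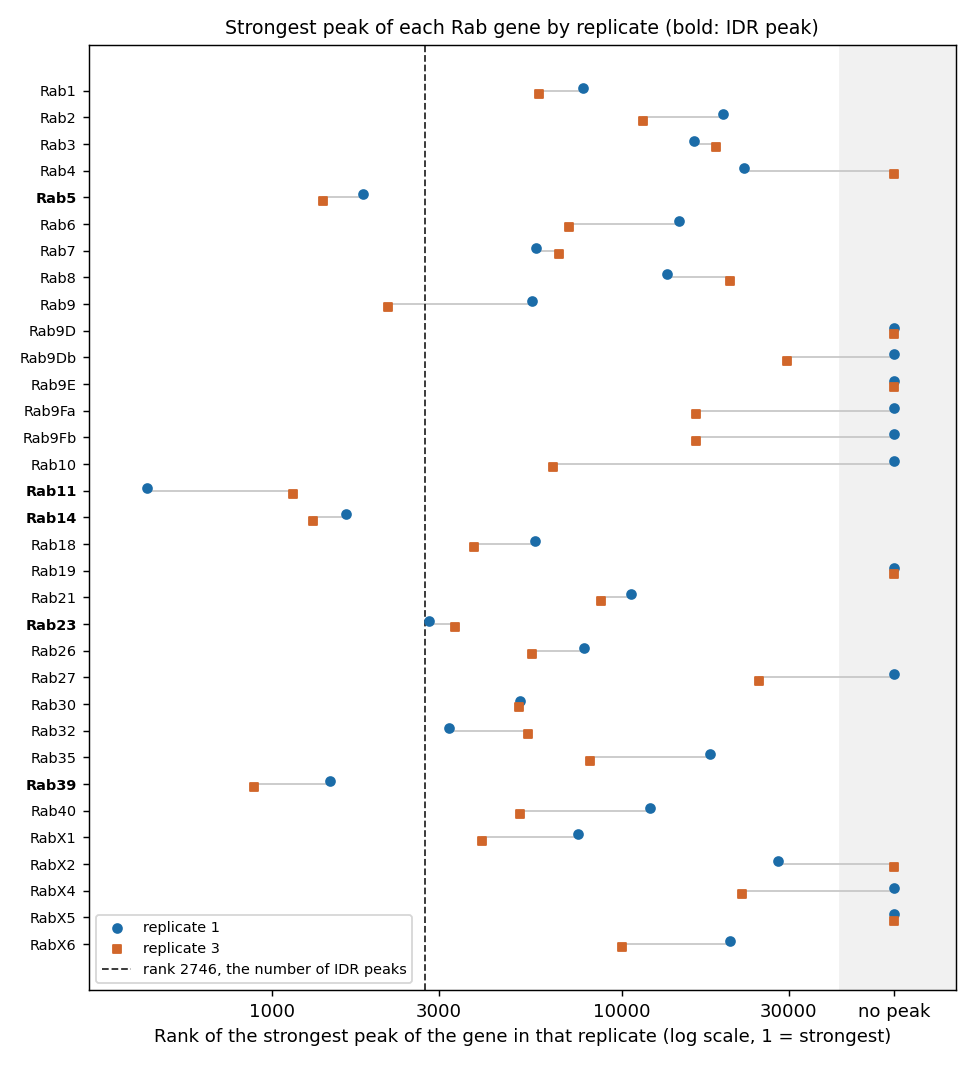
Rank of the strongest peak of each of the 33 Rab genes in replicate 1 (blue circles) and replicate 3 (orange squares), on a log scale with rank 1 the strongest, and a grey zone for genes with no peak in the list of 30000. Genes with an IDR peak are in bold, and the dashed line is rank 2746: both marks lie left of it for Rab5, Rab11, Rab14 and Rab39, and the replicate 3 mark alone for Rab9.

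Of the 28 Rab genes without an IDR peak, 2 had a weaker shared peak, defined as overlapping peaks of rank 10000 or better in both replicates, or 7.14%, against 13.0% of all genes without an IDR peak. Rab9 (FBgn0032782), whose mammalian counterpart returns receptors to the Golgi, had a peak in an intron, 1934 bp downstream of its start site in replicate 1 with a signal value of 14.9 and rank 5529, and 1841 bp downstream in replicate 3 with 42.6 and rank 2139. The replicates thus ranked this peak differently, and that of replicate 3 alone is among the 2746 strongest of its list. RabX1 (FBgn0015372), an endosomal Rab of flies, had a peak upstream of its start site, at 175 bp in replicate 1 with a signal value of 13.1 and rank 7503, and at 64 bp in replicate 3 with 28.6 and rank 3995. The remaining 26 members had neither kind of peak.

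Just outside these limits, Rab18, a Rab of the endoplasmic reticulum and lipid droplets, had peaks upstream of its start site of rank 5641 in replicate 1 and 3776 in replicate 3, but at 180 and 854 bp, so that they did not overlap. Rab32 (also called lightoid), which serves the making of pigment granules, had its strongest peaks at different places in the gene. They had rank 3203 in replicate 1 and rank 5378 in replicate 3. The replicate 3 peak, 2225 bp upstream of the nearest start site, did overlap a weaker replicate 1 peak, of rank 10151. Among Rabs of the Golgi and the early secretory route, Rab1 reached ranks 7742 and 5816 in replicates 1 and 3, Rab2 ranks 19427 and 11468, and Rab6 ranks 14590 and 7056. Rab7, the Rab of late endosomes, reached 5697 and 6621. Rab8, which acts in exocytosis, reached ranks 13469 and 20356, and Rab10, which acts in polarised secretion, had no peak in replicate 1 and rank 6345 in replicate 3. Every gene of this group except Rab10 had peaks in both lists, and none was among the 2746 strongest of either. These are best ranks in each replicate and can belong to different peaks. Those of Rab1 lay 977 and 32 bp downstream of its start site and did not overlap. For Rab7 they lay 289 bp upstream and 1307 bp downstream of the nearest start site, again without overlap.

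Some Rabs are known for their work at synapses and secretory vesicles. Rab3, which acts in synaptic vesicle release, had its strongest peaks at ranks 16115 in replicate 1 and 18569 in replicate 3. Rab26, a Rab of synaptic and secretory vesicles, reached ranks 7813 and 5546, the first 8744 bp downstream of the nearest of its 3 start sites and the second 369 bp upstream of one. Rab27, which acts in secretion, had no peak in replicate 1 and rank 24727 in replicate 3. None of these 3 genes had an IDR peak or a weaker shared peak. The other members with a peak in both replicates were Rab21 (10636 and 8724), Rab30 (5102 and 5080), Rab35 (17833 and 8098), Rab40 (12067 and 5111) and RabX6 (20350 and 10027), each by its best rank in replicate 1 and then in replicate 3. Rab4, a Rab of endosome recycling, had a peak in replicate 1 alone, at rank 22417, and RabX4 in replicate 3 alone, at rank 22116.

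Neither replicate had a peak at Rab9D, Rab9E, Rab19 and RabX5, or 12.1% of Rab genes, against 21.5% of all genes. Rab9D and Rab9E belong to a group of 6 short intronless genes on the X chromosome with Rab9Db, Rab9Fa, Rab9Fb and RabX2, 791 to 897 bp long. In this group replicate 1 had a single peak, at RabX2 with rank 27961, and replicate 3 had rank 29594 at Rab9Db and 1 peak of rank 16345 that falls to both Rab9Fa and Rab9Fb. How reads that match several related copies were handled is not stated in the labels, and a missing peak in this group is uncertain.

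Some Rab genes without an IDR peak had the nearest one 1346 to 2673 bp from a start site. How many of all genes without an IDR peak have a summit as near was not counted. The summit nearest to RabX5 was 1346 bp from its start site, 108 bp from the start of RpL23A, a ribosomal protein gene, and had a signal value of 218.8. That nearest to RabX4 was 1647 bp away at Kaz, that of Rab32 was 1709 bp away at Rme-8, which encodes an endosomal co-chaperone, that of Rab3 was 2008 bp away at CG7220, and that of Rab19 was 2673 bp away at Arl5, another small GTPase gene. The distance from a start site to the nearest IDR summit ranged from 298 to 179508 bp over the Rab genes with a median of 7597 bp, against a median of 11837 bp over all protein-coding genes. The farthest was Rab21, on the X chromosome.

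Gene length moved with the presence of a peak. The 5 Rab genes with an IDR peak were 1834 to 6132 bp long with a median of 4739 bp, and the 28 without were 791 to 16254 bp long with a median of 2005 bp. Intron sequence came to a median of 2924 bp in the first set and 356 bp in the second. Among Rab genes of 3500 bp or longer, 4 of 10 had an IDR peak, or 40.0%, against 29.8% of all genes of that length. From 2000 bp to under 3500 bp it was 0 of 8 Rab genes, against 18.4% of all, and under 2000 bp it was 1 of 15 Rab genes, or 6.67%, against 10.3% of all. A longer gene offers more room for a summit under the rule used, and the part of length in the differences was not tested.

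By chromosome arm, IDR peaks fell to 2 of 5 Rab genes on 2L, 2 of 5 on 3R, 1 of 13 on X, and 0 of 5 on each of 2R and 3L. Over all genes the shares were 17.7% on 2L, 19.6% on 3R, 18.6% on X, 16.4% on 2R and 19.9% on 3L. The X chromosome holds 13 of the 33 Rab genes, and 6 of those 13 are the short intronless copies.

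The same counts were made for the proteins that act on Rabs or through them. Of 53 genes for Rab regulators and effectors (exchange factors, activating proteins, prenylation enzymes, tethers and effectors), 23 had an IDR peak, or 43.4%, against 18.4% of all protein-coding genes, and 19, or 35.8%, had it within 1000 bp of a start site, against 15.7% of all. Of 31 other small GTPase genes (of the Ras, Arf, Sar and related families), 7 had an IDR peak, or 22.6%, and 6, or 19.4%, had it close to a start site, beside the same 18.4% and 15.7%. The median length was 2445 bp in Rab genes and 3547 bp in the regulators. The share of regulators with an IDR peak was 48.1% at 3500 bp or longer, 35.7% from 2000 bp to under 3500 bp and 41.7% below 2000 bp. For the other small GTPases it was 18.2%, 27.3% and 22.2% in the same order of length, and for all protein-coding genes 29.8%, 18.4% and 10.3%. In both lists, part of the counted genes had a summit nearer to the start site of another gene, among them Rab3GAP1, Rbsn-5, Mtl and Arl1. With each peak given to the nearest start site alone, 12.1% of Rab genes had one, against 15.2% of all genes. That count was not made for the lists, so how far their shares would change under it is not known. Both lists were drawn up with results of these data known, so their counts are descriptions, and the differences between the groups were not tested.

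**Figure D4:**
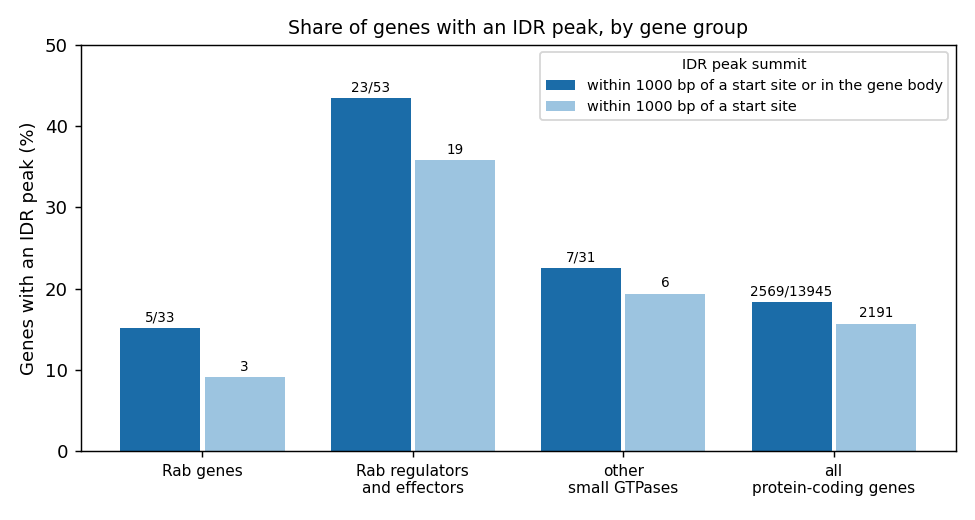
Percentage of genes with an IDR peak in 4 groups, dark bars for a summit within 1000 bp of a start site or in the gene and light bars for a summit within 1000 bp of a start site, with the number of genes above each bar. The Rab genes stand at 15.2% and 9.09%, the Rab regulators and effectors at 43.4% and 35.8%, the other small GTPases at 22.6% and 19.4%, and all protein-coding genes at 18.4% and 15.7%.

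Among the regulators the strongest IDR peak was at Vps33B, a protein of vesicle tethering, with a signal value of 354.3, 215 bp upstream of the start site, rank 72 in replicate 1 and 96 in replicate 3. Rbsn-5, an effector of Rab5, had a peak with a signal value of 257.4, 144 bp upstream, with PAPLA1 nearer to the summit. Rab3GAP1, the catalytic subunit of an activating complex for Rab3, had one of 204.4, 180 bp upstream, with CG14352 nearer. Mon1, part of the exchange factor of Rab7, had one of 181.3, 67 bp upstream, and its partner Ccz1 had one of 142.3, at its start site within 1 bp. Rab3 and Rab7 themselves had no IDR peak, and Rab5 had one of 97.9. Rip11, an effector of Rab11, had a peak with a signal value of 144.6 in an intron, 2484 bp from the nearest start site. Ccz1 and Rip11 were chosen for mention after their values were seen. Not all genes of this list had an IDR peak, and Rabex-5, nuf, Rab3-GEF and Rab3-GAP are examples of those without one.

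Among the other small GTPases, Mtl had the strongest peak, with a signal value of 573.0, 222 bp upstream and nearer to CG5611. Arl1, an Arf-like GTPase of the Golgi, had one of 323.9, 150 bp upstream and nearer to brm. Arl5, another Arf-like GTPase, had one of 146.3, 3 bp upstream of its own start site. Peaks with lower signal values were at Sar1, at 125.5, Rap1, at 92.7, and Ras85D, at 82.8, which were added to the named genes after their values were seen. The strongest peak at a Rab gene, 145.5 at Rab11, lay within the range of these values.

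Sequence words were counted in windows of each summit with 50 bases on either side, on both strands. The E-box CANNTG was in 2 of the 3 windows at Rab start sites, as CACGTG at Rab5 and CATTTG at Rab39, against 31.0% of the 1634 IDR windows near a start site. The Rab39 summit lies in an exon of Pdp, whose start site is nearer to it than that of Rab39. Over all 6 Rab windows it was 2, or 33.3%, against 32.7% of all IDR windows. The E-boxes CAGCTG and CAGATG were in none of the 6 Rab windows, against 2.99% and 2.69% of all IDR windows. In the wider printed windows, Rab5 held CACTTG and CACGTG, the first Rab11 window held CAGCTG and CATATG, and the windows of Rab14, Rab23 and the second Rab11 peak held no CANNTG. The printed stretch of Rab39 leaves out the summit and held no CANNTG. The words TATCGATA, CGATAG, GGTCACAC and GAGAG were in none of the 6 windows with 50 bases on either side, against 1.57%, 3.86%, 0.583% and 8.23% of all IDR windows. The median GC content was 32.7% in the Rab windows and 30.7% in all IDR windows.

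The promoters of the Rab genes, taken as 250 bp before to 50 bp after the 5′ end of the gene, held other words. TATCGATA, the word bound by DREF, a regulator of housekeeping and replication genes in flies, was in 11 of 33 Rab promoters, or 33.3%, against 9.37% of all promoters. CGATAG, bound by the insulator protein BEAF-32, was in 17, or 51.5%, against 19.6%, and with words that share bases with TATCGATA left out it was in 11, or 33.3%, against 16.1%. GGTCACAC, called Motif 1, was in 4, or 12.1%, against 7.71%. GAGAG, bound by GAGA factor, was in 4, or 12.1%, against 29.8%, and CANNTG was in 26, or 78.8%, against 77.3%. Copies of TATCGATA numbered 12, all upstream, the first base 12 to 170 bp before the 5′ end. The copies that lie outside exons are shown with 10 bases on each side, in the direction of the gene on dm6 and with the word in capitals, so that the flanks can be compared.
Rab6: aatatgcgttTATCGATAgcgtggcaga
Rab8: tacgataagcTATCGATAgacgacggcg
Rab19: taaaatggaaTATCGATAtatgagcttc
Rab27: tcgcgatactTATCGATAgctctgcgcg
Rab30: aacgtcgatcTATCGATAccgagaaaaa
Rab35: tctctaaataTATCGATAcatattgata
RabX6: aattatcggtTATCGATAgcgttcaaat

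These 7 copies lie at chr2L:12109151-12109178 (Rab6, minus strand), chr3L:19871079-19871106 (Rab8, minus strand), chr3L:8296988-8297015 (Rab19, plus strand), chrX:1477027-1477054 (Rab27, minus strand), chr2L:7032636-7032663 (Rab30, minus strand), chrX:20160025-20160052 (Rab35, minus strand) and chr3L:690458-690485 (RabX6, plus strand). None of the 7 genes had an IDR peak. The other genes with the word were Rab2, Rab7, Rab14 and Rab40, and of all 11 only Rab14 had an IDR peak, or 9.09%, against 26.2% of all genes with the word. Of the 22 Rab genes without the word, 4 had an IDR peak, or 18.2%, against 17.6% of all genes without it. Of the 17 Rab genes with CGATAG, 4 had an IDR peak, or 23.5%, against 24.3% of all genes with it. Of the 16 Rab genes without CGATAG, 1 had an IDR peak, or 6.25%, against 17.0% of all genes without it. These differences were not tested.

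**Figure D5:**
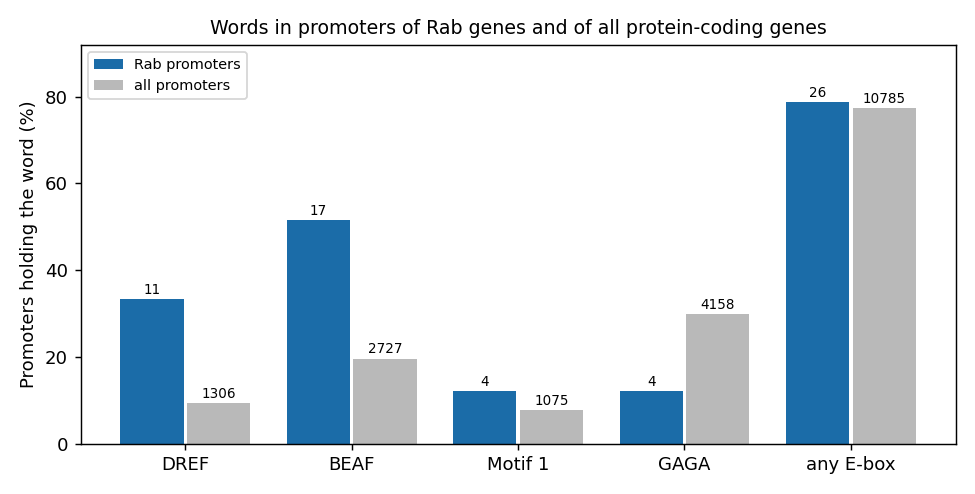
Percentage of promoters (250 bp before to 50 bp after the 5′ end) that hold each word, Rab genes in blue and all protein-coding genes in grey, with the number of promoters above each bar. The words are TATCGATA (DREF), CGATAG (BEAF), GGTCACAC (Motif 1), GAGAG (GAGA factor) and CANNTG (any E-box): the Rab bars stand above those of all genes for DREF and BEAF, at 33.3% and 51.5%, and below for GAGAG, at 12.1%.

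Many Rab genes had a neighbour that starts close by on the opposite strand, and whether such pairs share a promoter was not tested. A coding gene on the opposite strand started within 500 bp of a start site in 15 of 33 Rab genes, or 45.5%, against 27.8% of all genes. Of these 15, 4 had an IDR peak (Rab5, Rab14, Rab23 and Rab39), or 26.7%, against 33.2% of all genes with such a neighbour. Of the 18 Rab genes without one, 1 had an IDR peak (Rab11), or 5.56%, against 12.7% of all genes without one. For Rab5, Rab14 and Rab23 the summit was inside the Rab gene and nearer to its start site than to that of the neighbour. For Rab39 it was just inside Pdp.

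A pooled list of 30000 peaks, from 7.0 to 182.6 in signal value, gave another reading. The Rab5, Rab11 and Rab23 peaks were found there at ranks 1893, 1025 and 1272, with signal values of 17.7, 22.8 and 20.9. The Rab14 and Rab39 peaks overlapped only pooled peaks of ranks 12244 and 11468, with signal values of 9.9 and 10.1, although both replicates ranked these regions among their strongest 2746. An IDR peak without a pooled peak of rank 10000 or better was also found in 11.8% of all IDR peaks. The deposited text lists of files say that the pooled list derives from the alignments of both replicates and that the IDR list derives from it and both replicate lists. The peak caller and its settings were not stated there.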

How the data were processed

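Chromatin immunoprecipitation sequencing of cato-eGFP in whole embryos, 2 replicates of 1 condition, was analysed from peak lists. Per the labels, the lists of each replicate are peaks and background made as input for IDR, on dm6 and dm3, and only dm6 was used. Each peak has a signal value that the authors deposited. Read depth, aligner and peak caller with its version were not given in the sources used here, and no counting error could be computed. Positions are 1-based. Genes came from Ensembl release 115 (BDGP annotation 6.54), restricted to the main chromosome arms other than Y, and bases from RefSeq's copy of that assembly. With 1 condition no test was made: each count stands beside the same count over all protein-coding genes. The members and the gene lists were chosen with earlier results of these data known. Of 56 listed names of regulators and effectors, 55 matched, giving 53 genes, and all 34 names of other small GTPases matched, giving 31. Named genes are every Rab gene, up to 4 genes per list with the highest signal value, and nearer or promoter-sharing neighbours; 1 of the listed genes is not reported here. Overlap means at least 1 bp. The look-ups were checked against a direct search. Calculations used Python 3.11.15 and plots matplotlib 3.10.9.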

Additional observations from a re-analysis of the deposited data

How the results depend on the processing

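The count of 5 Rab genes with an IDR peak was 4 by the nearest start site, 5 within 500 bp and 6 with peak intervals. Over all genes these shares were 15.2%, 17.4% and 19.2%. In the pooled list it was 4, against 17.4% of all genes, but with other members. Rab5, Rab11 and Rab23 stayed, Rab14 and Rab39 dropped out, and Rab26 came in. With genes named after a Rab added it was 6 of 36 genes, against 18.4%. It was 5 without replicate 1 and 4 without replicate 3, against 18.1% and 18.7% of all genes. It was 2, Rab11 and Rab39, among the stronger 50% of IDR peaks, against 10.8% of all genes. Rab23 was absent when either replicate was read alone, and Rab39 when each peak went to the nearest start site. The count of 3 at start sites was 2 within 500 bp, at 5′ ends only and without nearer genes. Over all genes these shares were 13.8%, 14.3% and 10.9%. In the pooled list it was 2, Rab5 and Rab26, against 13.6% of all genes. It was 3 without replicate 1 and 4 without replicate 3, against 15.4% and 16.1% of all genes. It was 0 within 250 bp, against 10.8% of all genes, and 1, Rab39, among the stronger 50%, against 9.09%. The count of 2 with only a weaker shared peak was 0 at rank 5000, against 3.84% of all genes. In the full lists it was 13 (39.4% of Rab genes, against 27.5% of all). The median signal value of 90.3 was 97.9 at start sites alone and 82.7 where the nearest start site is that of a Rab gene. E-boxes were in 2 of 3 start-site windows with 25 and with 100 bases on either side of the summit too, against 15.9% and 56.1% of all IDR windows near a start site. No paired analysis was possible because there is 1 condition. With 5 genes and 6 peaks, 1 gene more or less moves every share, and read depth is unknown.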

Other observations

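Rab26 had no IDR peak, yet in the pooled list its strongest peak had rank 1414 and a signal value of 20.0, 506 bp upstream of a start site. Its strongest peaks in the replicates had ranks 7813 and 5546. Rab2 had rank 3504 in the pooled list, 172 bp downstream of its start site, with ranks 19427 in replicate 1 and 11468 in replicate 3.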
